A study of Homo sapiens with 2 samples.

Results

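The measurements concern 10 genes for integrin subunits, of 36601 genes listed in the count tables: the alpha subunit genes ITGA1, ITGA2, ITGA3, ITGA4, ITGA5, ITGA6, ITGA8 and ITGAV and the beta subunit genes ITGB1 and ITGB8. They were taken by symbol and read in 4 lineages of cells from human inner ear organoids. A cell was counted as otic with at least 5 unique molecular identifiers (UMIs, each standing for 1 captured RNA molecule) of OC90, an otoconial matrix gene. Mesenchyme needed at least 3 UMIs of the collagen gene COL1A2, glia at least 3 of the Schwann cell cadherin gene CDH19, and neurons at least 5 of STMN2, a gene of growing axons. Cells that met more than 1 of these limits were left out of the lineages and are described on their own where they matter.

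The organoids were grown from WA25 human embryonic stem cells carrying SOX2nT, a nuclear tdTomato reporter at SOX2, and cells positive for the reporter were sorted on day 40. There was 1 library from organoids labelled GelNB-CH, a light-set gelatin hydrogel, and 1 from organoids labelled Matrigel, an extract of basement membrane rich in laminin and type IV collagen. Both labels carry the same culture text: 2% Matrigel with FGF-2, BMP-4 and a TGF-beta receptor blocker on day 0, CHIR99021 at 3 µM until day 18, embedding on day 11 in GelNB-CH with 0.1 wt% of a thiol crosslinker, and 0.02% oxidized dextran on day 15. For the Matrigel library, no separate embedding step was given in the sources used here. All cells came from the same stem cell line, sorting kept only reporter-positive cells, and no library of unsorted cells was analysed here.

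Integrins are receptors of the cell surface, each a pair of an alpha and a beta subunit, that hold cells to the matrix around them and pass signals from it. The alpha subunit largely sets the ligand: ITGA3 and ITGA6 proteins bind laminins, ITGA1 and ITGA2 proteins bind collagens, ITGA5, ITGA8 and ITGAV proteins bind ligands with the short RGD sequence such as fibronectin and nephronectin, and ITGA4 protein binds fibronectin and VCAM1. ITGB1 protein can join each of these alpha subunits, whereas ITGB8 protein joins only that of ITGAV, in a receptor known for freeing TGF-beta from its latent form. In the mouse inner ear the ITGA8 receptor is known from the apical surface of hair cells, and in the neural crest and its Schwann cells laminin and fibronectin receptors serve migration and the wrapping of axons.

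The lineages held 6124 otic, 6111 mesenchyme, 275 glial and 934 neuronal cells in GelNB-CH and 2203, 3642, 236 and 506 in Matrigel. Glia as counted here were the smaller part of the cells meeting the CDH19 limit, which numbered 709 and 1899. Of these, 412 and 1616 also met the COL1A2 limit alone and were left out, so the glial values rest on the remainder. Matrigel cells were deeper, with medians of 7067.5 to 10049 UMIs per cell over the GelNB-CH lineages and of 9282.5 to 16440 over the Matrigel lineages. Levels are in CPM, the UMIs of a gene scaled to a common total of UMIs. In their own lineage and in both libraries, 9 of 10 otic markers, 9 of 10 mesenchyme markers, 10 of 10 glial markers and 10 of 10 neuron markers reached 10 CPM. The 5 leukocyte markers summed to between 1.34 and 3.75 CPM in the lineages, but other marker lists were higher. The 5 melanocyte markers summed to 368 CPM in GelNB-CH glia and 87.1 in Matrigel glia. In mesenchyme the 6 cartilage markers summed to 2999.6 CPM (GelNB-CH) and 3316.7 (Matrigel), and the 5 endothelium markers to 192 and 185. The libraries shared 78 cell barcodes. Otic cells carried 17.4 CPM (GelNB-CH) and 15.1 CPM (Matrigel) of COL1A1, a collagen gene that stood at 1165 and 1397 CPM in mesenchyme, a gauge of RNA from other cells in the droplets. UMIs were counted from the 3' ends of transcripts, so the levels below are not divided by gene length.

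The subunit genes with the sharpest lineage patterns lie on chromosomes 2, 5 and 10. ITGA1 (chr5:52787896-52959210, plus strand) and ITGA2 (chr5:52989326-53094779, plus strand) follow each other on chromosome 5, yet ITGA1 was a gene of the glial cells and ITGA2 one of otic cells and glia. ITGA4 (chr2:181457202-181536187) and ITGA6 (chr2:172427354-172506282), both on the plus strand, were highest in glia in both libraries, and ITGA8 (chr10:15513949-15720125, minus strand) was highest in otic cells. The bases just upstream of these 5 genes, high in the same lineage or neighbours high in different ones, are shown in stretches of unequal length. They are RefSeq's sequence (build GRCh38.p14), printed 5′ to 3′ on the strand of the gene. Each runs up to the outermost annotated start, except that of ITGA6, which leaves out the last 18 bases before it. They span chr5:52787666-52787895, chr5:52989102-52989325, chr2:181457136-181457201, chr2:172427086-172427335 and chr10:15720126-15720172. Capitals mark matches, on either strand, to the GC box (GGGCGG) or to the core of SOX protein sites (ACAANG).
ITGA1: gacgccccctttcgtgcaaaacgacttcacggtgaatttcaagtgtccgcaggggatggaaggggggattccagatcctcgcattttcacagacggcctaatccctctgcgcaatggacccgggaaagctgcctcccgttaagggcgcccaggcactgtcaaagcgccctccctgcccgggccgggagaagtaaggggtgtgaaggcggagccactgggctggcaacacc
ITGA2: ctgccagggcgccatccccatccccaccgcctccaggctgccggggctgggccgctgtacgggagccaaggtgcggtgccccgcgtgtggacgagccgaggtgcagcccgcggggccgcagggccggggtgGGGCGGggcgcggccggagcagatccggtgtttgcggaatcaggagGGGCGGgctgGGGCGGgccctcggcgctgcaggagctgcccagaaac
ITGA4: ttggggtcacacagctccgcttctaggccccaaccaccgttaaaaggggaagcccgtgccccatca
ITGA6: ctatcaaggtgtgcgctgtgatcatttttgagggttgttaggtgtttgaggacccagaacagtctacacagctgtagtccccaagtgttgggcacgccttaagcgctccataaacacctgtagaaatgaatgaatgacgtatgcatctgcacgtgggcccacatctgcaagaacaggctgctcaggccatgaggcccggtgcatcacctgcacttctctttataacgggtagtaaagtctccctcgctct
ITGA8: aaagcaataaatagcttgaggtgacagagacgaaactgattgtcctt

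The ITGA2 stretch held 3 GC boxes, and the other stretches held neither motif. The stretches run from 47 bases (ITGA8) to 250 (ITGA6), so their matches cannot be compared between genes. In windows of 250 bases, those of ITGA2 and ITGA8 each held 4 GC boxes and that of the second ITGA6 start held 3. The windows of ITGA1, ITGA4 and the first ITGA6 start held none. Over the whole 250 bases before each RefSeq start, 9 of the 10 genes had an entry, with 12 starts in all. A GC box stood in 6 of these 12 windows, against 42.6% of 35116 human windows of the same length, and a SOX core in 1 of 12 against 30.9%. The window with a SOX core belongs to the second start of ITGAV. A match describes letters only, and the absence of one says only that they are not in the window.

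Glia carried the most integrin RNA and neurons the least. Summed over the 8 alpha subunits, glia stood at 744 (GelNB-CH) and 860.0 CPM (Matrigel), otic cells at 240 and 268, mesenchyme at 223 and 243, and neurons at 45.4 and 46.6. For 8 of the 10 subunits the same lineage was highest in both libraries: glia for ITGA1, ITGA4, ITGA6, ITGAV and ITGB1, otic cells for ITGA8 and ITGB8, and mesenchyme for ITGA5. No subunit was highest in neurons, and 4 of the 10 (ITGA2, ITGA6, ITGAV and ITGB1) were lowest there in both libraries. The full order of the 4 lineages was the same in both libraries for ITGA4, ITGA6, ITGAV and ITGB1.

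**Figure D1:**
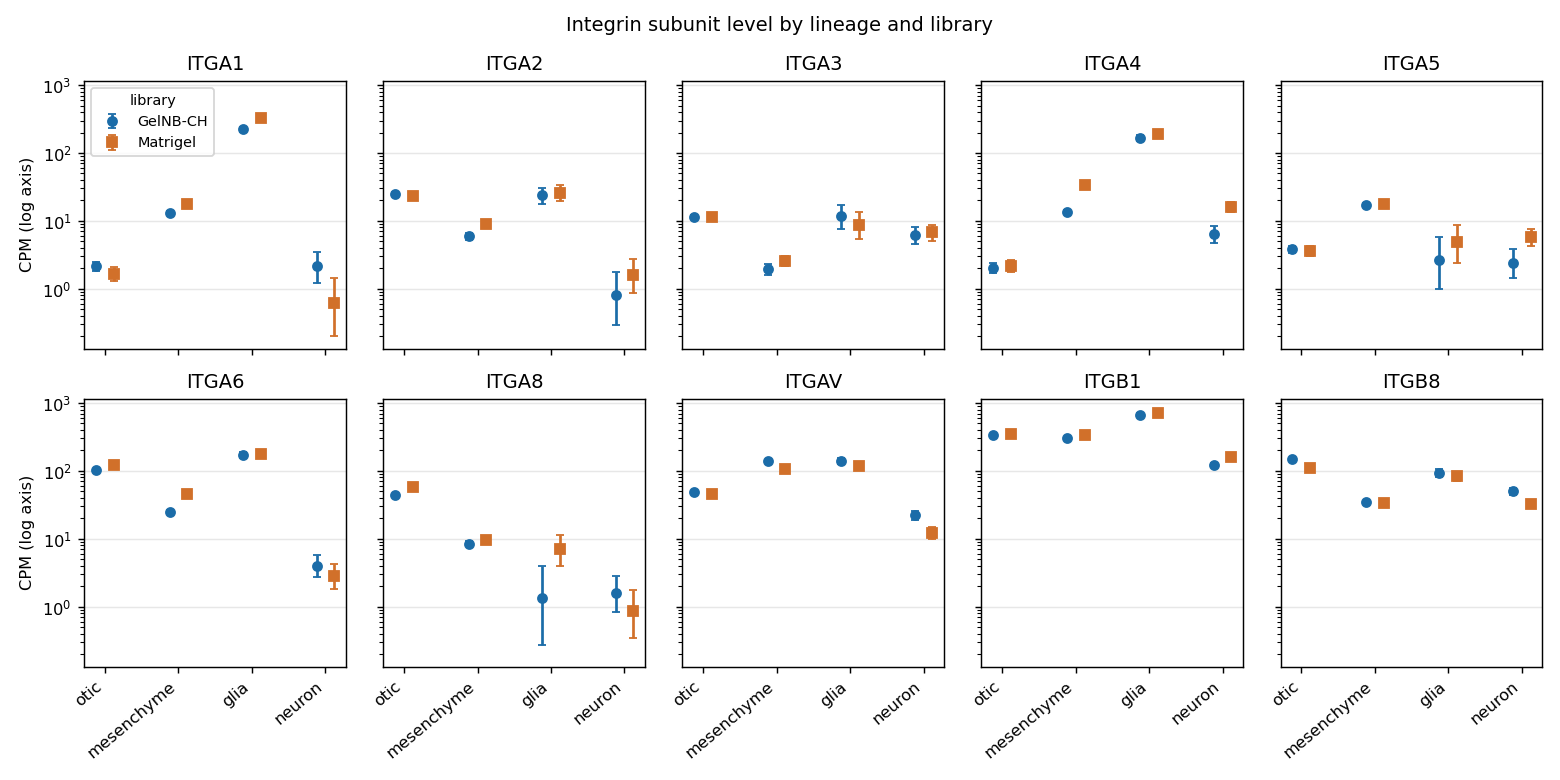
Level of each integrin subunit (CPM, log axis) in the 4 lineages, with 1 point per library and bars for the exact Poisson 95% interval, which covers counting error only. ITGA1 and ITGA4 stand above 100 CPM in glia alone, ITGA8 is highest in otic cells and ITGB1 is the highest subunit in every lineage.

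Each pair of lineages was compared with edgeR's quasi-likelihood test on the 8 sums of counts, 4 lineages in each of 2 libraries, with the library as a block and p-values adjusted over 11794 genes. All 10 subunits passed the filter of 10 CPM in 2 of the sums, ITGA5 only through mesenchyme, ITGA8 only through otic cells, and ITGA2 and ITGA3 only through otic cells and glia, so the filter itself favoured their differences. With the library as a block, the p-values set each lineage difference against how far such differences vary between the 2 libraries. These libraries also differ in hydrogel, with no replicate of either, and all 8 sums share 1 estimate of spread. Between otic cells and mesenchyme 9 of the 10 subunits differed (37.7% of all genes tested did), 5 higher in otic cells (18.9% of genes) and 4 in mesenchyme (18.8%). Otic cells differed from glia in 6 (38.9%), 2 higher in otic cells (19.8%) and 4 in glia (19.1%), and from neurons in 8 (54.7%), 7 higher in otic cells (28.8%) and 1 in neurons (25.9%). Mesenchyme differed from glia in 8 (28.7%), 1 higher in mesenchyme (14.3%) and 7 in glia (14.4%), and from neurons in 9 (57.8%), 8 higher in mesenchyme (29.4%) and 1 in neurons (28.4%). Glia and neurons differed in 7 (49.2%), all 7 higher in glia (25.2%) and none in neurons (23.9%). Without the filter the 6 counts, in the same order, were 9, 6, 8, 9, 9 and 8. The median log2 ratio of the 10 subunits was widest for glia over neurons, at 2.68 (-0.01 over all genes), and for mesenchyme over neurons, at 2.50 (-0.01 over all genes). In all, 47 of the 60 comparisons passed an adjusted p of 0.05, against 28.7% to 57.8% of all genes, depending on the pair. In all 47 each library alone had the same direction, but these are the 2 libraries that gave the calls, so this is no separate support.

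Of the laminin receptors, ITGA6 was high in glia and otic cells. It stood at 174 CPM in GelNB-CH glia and 175 in Matrigel glia, at 102 and 123 in otic cells, at 25.0 and 46.2 in mesenchyme, and at 3.99 and 2.82 in neurons. The lineages did not overlap, in that both otic values lay above both mesenchyme values and far above both neuron values. ITGA6 was 32.9-fold higher in otic cells than in neurons (log2 5.04, SE 0.34, edgeR adjusted p = 7.4e-05) and 2.93-fold higher in otic cells than in mesenchyme (log2 1.55, SE 0.25, adjusted p = 0.0043). The second of these calls was lost, with the same direction, when cells meeting several limits were counted in each lineage (adjusted p = 0.43), when cells were thinned to 5000 UMIs first (0.11) and at limits of 10 UMIs for OC90 and STMN2 and 6 for COL1A2 and CDH19 (0.058). The difference between glia and otic cells did not pass the test for ITGA6 (log2 otic over glia -0.69, SE 0.25, adjusted p = 0.073). It passed when cells meeting both the CDH19 and the COL1A2 limit were counted as glia (log2 -1.31, adjusted p = 0.0072) and when mesenchyme cells with glial UMIs were left out of the fit (log2 -0.69, adjusted p = 0.014), both chosen after seeing the data. After thinning to 5000 UMIs per cell, 54.9% of GelNB-CH and 54.8% of Matrigel glia had an ITGA6 UMI, as did 35.7% and 40.3% of otic cells and 1.62% and 1.41% of neurons (unthinned neurons, 2.36% and 3.36% at medians of 7067.5 and 14377.5 UMIs).

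ITGA3, which encodes another laminin-binding subunit, was low in every lineage. It stood at 11.2 CPM in otic cells of both libraries, 11.6 and 8.71 in glia, 6.11 and 6.75 in neurons, and 1.92 and 2.59 in mesenchyme. Mesenchyme was the lowest in both libraries, 4.55-fold below otic cells (log2 otic over mesenchyme 2.19, SE 0.25, edgeR adjusted p = 0.0010). Neurons lay above mesenchyme and below otic cells (adjusted p = 0.0049 and 0.036), but the first of these was lost in 3 alternatives (adjusted p up to 0.53) and the second in 4 (up to 0.30).

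Among the collagen receptors, ITGA1 marked the glia. It stood at 224 CPM in GelNB-CH glia (interval 205 to 245) and 332 in Matrigel glia (309 to 357), at 13.2 and 17.5 in mesenchyme, at 2.12 and 1.64 in otic cells, and at 2.13 and 0.614 in neurons. Otic cells and neurons were near 0, and both glial values lay far above all others. ITGA1 was 149-fold higher in glia than in otic cells (log2 otic over glia -7.21, SE 0.38, edgeR adjusted p = 8.7e-05) and 17.0-fold higher than in mesenchyme (adjusted p = 0.00059). Thinned cells with a UMI made up 51.9% and 56.5% of glia but 1.01% and 0.703% of otic cells. ITGA1 shares its span on the same strand with PELO, a ribosome rescue gene whose own rows held 2977 counts, so some reads of the pair may be assigned uncertainly.

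Under the rule for likeness, the smallest distance over log2(CPM + 1) of the 8 sums among 12643 genes, the genes nearest to ITGA1 were COL19A1, a collagen gene at 251 and 273 CPM in glia, and OLFML2A. Glia defined by CDH19 alone were the smaller part of the cells meeting the CDH19 limit. Cells that met both the CDH19 and the COL1A2 limit numbered 412 in GelNB-CH and 1616 in Matrigel, carried all 10 glial markers at 10 CPM or more, and had ITGA1 at 271 and 254 CPM. In cells meeting no other lineage limit, which may hold UMIs of the other lineage genes below it, ITGA1 already stood at 123 and 136 CPM at 1 to 2 CDH19 UMIs. That is just under the CDH19 limit, and at 3 to 4 UMIs ITGA1 stood at 198 and 230 CPM.

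ITGA2, the other collagen-binding subunit, was spread over otic cells and glia. It stood at 25.1 and 22.9 CPM in otic cells, 23.6 and 25.7 in glia, 5.87 and 8.97 in mesenchyme, and 0.797 and 1.60 in neurons. Otic cells exceeded neurons by 20.1-fold (log2 4.33, SE 0.33, edgeR adjusted p = 0.00012) and mesenchyme by 3.01-fold (adjusted p = 0.0026), although the latter was lost when cells meeting several limits were counted in each lineage (adjusted p = 0.080). Otic cells and glia differed by a log2 ratio of -0.07 with an SE of 0.25 (adjusted p = 0.85).

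ITGA4 followed ITGA1 in glia. It stood at 167 and 190 CPM in glia, 13.4 and 33.8 in mesenchyme, 6.38 and 16.1 in neurons, and 2.01 and 2.14 in otic cells. The glial values lay far above the rest, and in mesenchyme and neurons the Matrigel library was the higher. Glia exceeded otic cells by 87.5-fold (log2 otic over glia -6.45, SE 0.42, edgeR adjusted p = 0.00017) and mesenchyme by 7.78-fold (adjusted p = 0.0024). Mesenchyme exceeded neurons by 2.25-fold (adjusted p = 0.032), but this reversed without being called in mesenchyme cells that lacked glial UMIs (log2 mesenchyme over neuron -0.18, adjusted p = 0.63), and it was lost at a fold as large without the library block (log2 1.20, adjusted p = 0.083) and in cells of 8000 to 16000 UMIs (log2 1.29, adjusted p = 0.084). The genes nearest to ITGA4 were BCHE, the butyrylcholinesterase gene, at 207 and 252 CPM in glia, and EGFLAM, which encodes the matrix protein pikachurin.

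The RGD-binding subunits divided between lineages. ITGA5, the classical fibronectin receptor subunit, stood at 17.2 and 17.6 CPM in mesenchyme, 3.83 and 3.60 in otic cells, 2.67 and 4.79 in glia, and 2.39 and 5.77 in neurons. Only the mesenchyme values stood clear of the rest. Mesenchyme exceeded otic cells by 5.10-fold (log2 otic over mesenchyme -2.35, SE 0.31, edgeR adjusted p = 0.0019), glia by 5.02-fold (adjusted p = 0.011) and neurons by 4.76-fold (adjusted p = 0.0019). ITGA5 had entered the test through mesenchyme alone, so the filter favoured these 3 differences. The calls were also made with no filter on low counts, in a refit of the same sums that is no separate support. Among otic cells, glia and neurons no pair passed the test for ITGA5, the closest being otic cells against neurons (adjusted p = 0.83).

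ITGAV, which encodes the partner of ITGB8 protein, was level in mesenchyme and glia. It stood at 138 and 106 CPM in mesenchyme, 139 and 117 in glia, 48.7 and 45.5 in otic cells, and 22.1 and 12.1 in neurons. Mesenchyme and glia overlapped, with a log2 ratio of 0.01 and an SE of 0.17 (edgeR adjusted p = 0.96). Mesenchyme exceeded otic cells by 2.82-fold (adjusted p = 0.00098), and glia exceeded neurons by 7.92-fold (adjusted p = 9.1e-05). ITGAV made up 62.0% and 43.9% of the alpha subunit UMIs in mesenchyme, where it was the largest share in both libraries.

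**Figure D2:**
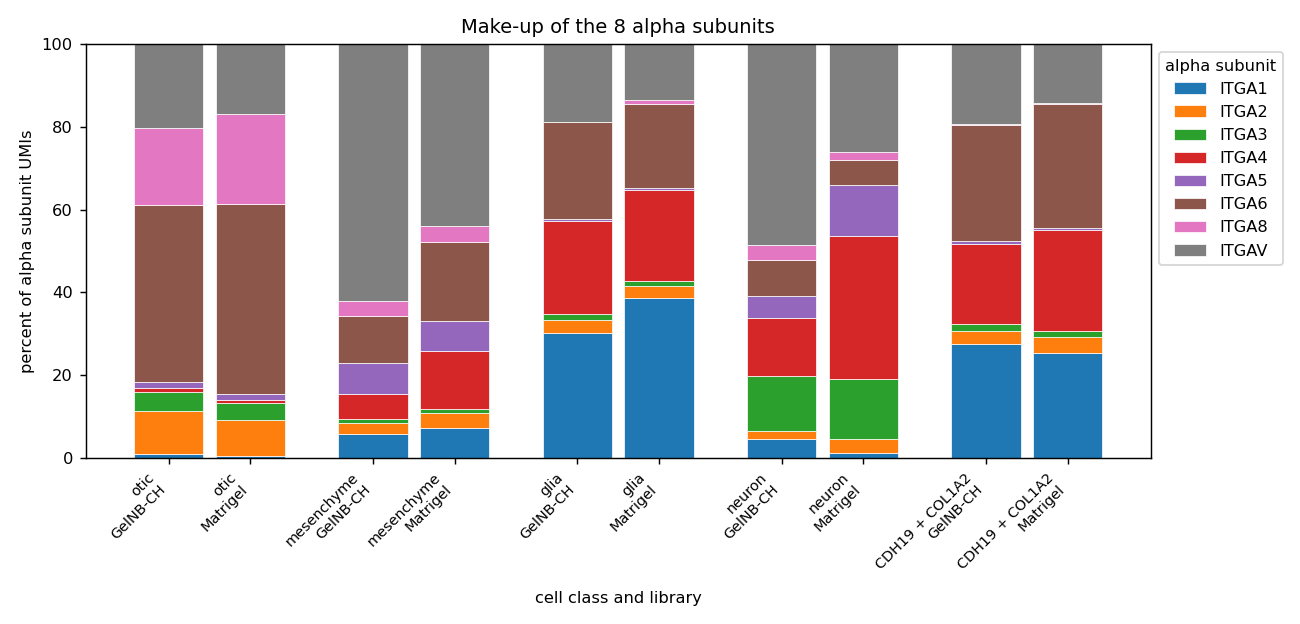
Share of each of the 8 alpha subunit genes in all alpha subunit UMIs (percent, stacked to 100), by cell class and library; the last pair of bars is the class that met both the CDH19 and the COL1A2 limit. ITGA6 is the largest share in otic cells (42.6% and 45.8%), ITGAV in mesenchyme and ITGA1 in glia (30.2% and 38.7%).

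ITGA8, whose protein with that of ITGB1 binds nephronectin, was an otic gene here. It stood at 44.6 CPM in GelNB-CH and 58.4 in Matrigel otic cells, 8.44 and 9.54 in mesenchyme, 1.34 (3 counts, interval 0.275 to 3.90) and 6.97 (16 counts, interval 3.98 to 11.3) in glia, and 1.59 and 0.859 in neurons. Otic values lay above all others. Otic cells exceeded mesenchyme by 5.17-fold (log2 2.37, SE 0.28, edgeR adjusted p = 0.0013), glia by 12.1-fold (adjusted p = 0.0012) and neurons by 41.9-fold (adjusted p = 0.00012). ITGA8 had entered the test through otic cells alone, so the filter favoured these 3 differences. The calls were also made with no filter on low counts, in a refit of the same 8 sums that is no separate support. Nearest to it among all genes was OTOG, the gene of otogelin, a matrix protein of the membranes over inner ear sensory patches, with 39.5 and 47.7 CPM in otic cells.

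Within otic cells ITGA8 was held by few cells. After thinning, its variance over cells was 4.97 times its mean in GelNB-CH and 4.71 times in Matrigel, while the other 9 subunits ranged from 0.986 to 1.66 on this scale. Cells with at least 5 ITGA8 UMIs were 179 in GelNB-CH (2.92% of otic cells) and 126 in Matrigel (5.72%), and they held 60.1% and 69.2% of all otic ITGA8 UMIs. No ITGA8 UMI was found in 84.3% and 74.6% of otic cells. The cells with at least 5 were deeper, with medians of 16902 and 24499 UMIs against 9595 and 15511 for cells with none. At equal depth of 5000 UMIs, 9.72% and 12.9% of otic cells had an ITGA8 UMI, against 0.811% and 0.604% of neurons.

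ITGA8 also rose with SOX2, the reporter gene of the sort, a split chosen after the values were seen and given without a test. SOX2 UMIs were sparse, and 5489 of the GelNB-CH and 1673 of the Matrigel otic cells had none. From 0 to 1, 2 and at least 3 SOX2 UMIs, ITGA8 stood at 33.8, 62.9, 149 and 479 CPM in GelNB-CH. In Matrigel the same steps gave 40.3, 80.9, 65.0 and 234 CPM, so the cells with 2 SOX2 UMIs were below those with 1. Median depth differed across these bins, from 9772 to 16032 UMIs in GelNB-CH and from 15636 to 24841 in Matrigel. In cells thinned to 5000 UMIs the levels at 0 and at least 2 SOX2 UMIs were 35.5 and 400.0 CPM in GelNB-CH (29 cells in the second) and 50.9 and 133 CPM in Matrigel (27 cells). Over the same split ITGA2 went from 24.5 to 36.1 CPM in GelNB-CH and from 21.5 to 31.7 in Matrigel, and ITGA6 from 102 to 107 and from 122 to 144.

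**Figure D3:**
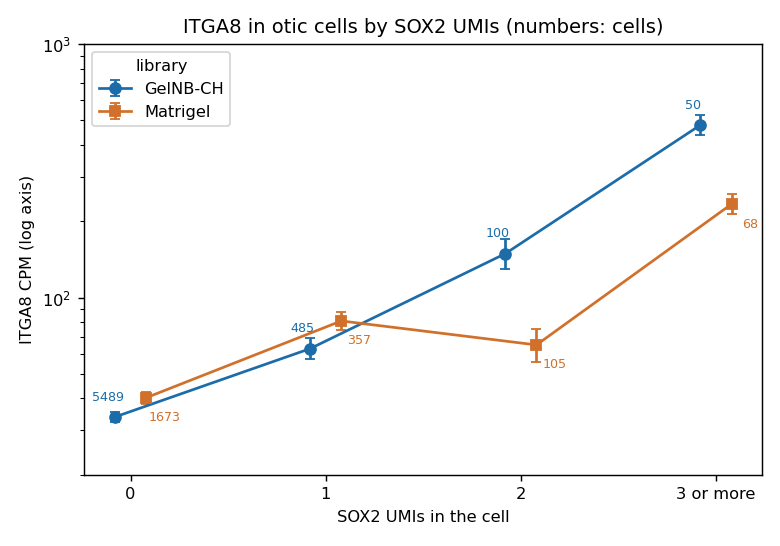
ITGA8 level (CPM, log axis) in otic cells grouped by their SOX2 UMIs, with 1 line per library, exact Poisson 95% intervals and the number of cells beside each point. Cells with at least 3 SOX2 UMIs are the highest in both libraries, at 479 and 234 CPM.

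Other otic splits chosen in the same way moved ITGA8 the opposite way or moved other subunits. Otic cells with no UMI of LMX1A, a transcription factor gene of the non-sensory otic roof, had ITGA8 at 79.6 and 142 CPM, and those with at least 2 had 31.0 and 34.8. After thinning the pair was 55.6 and 25.1 in GelNB-CH and 76.4 and 25.8 in Matrigel. Cells with at least 2 UMIs of IRX3 had ITGA6 at 131 and 151 CPM, against 85.4 and 85.9 without IRX3. The ITGA6 difference kept its direction after thinning, at 135 and 89.1 CPM in GelNB-CH and 170 and 94.98 in Matrigel.

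Genes that separated otic cells with and without ITGA8 in both libraries, again taken after their values were seen, are given here as values only. In thinned cells OTOL1, the gene of otolin in the otoconial membrane, stood at 269 CPM with and 11.7 without an ITGA8 UMI in GelNB-CH, and at 169 and 18.4 in Matrigel. ADAMTSL1, a secreted matrix protein gene, stood at 170 and 15.9, and at 205 and 10.8. UNC5D, a netrin receptor gene, stood at 50.4 and 10.6, and at 56.7 and 6.24. In the other direction CALB1, a calcium-binding protein gene, stood at 12.9 with and 101 without, and at 26.9 and 94.1, and the keratin gene KRT17 at 17.2 and 68.8, and at 7.27 and 44.8.

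Of the beta subunits, ITGB1 was the highest integrin gene in every lineage. It stood at 670 and 724 CPM in glia, 341 and 346 in otic cells, 307 and 336 in mesenchyme, and 122 and 159 in neurons. Glia were above all other lineages in both libraries, and otic cells and mesenchyme were close (log2 otic over mesenchyme -0.04, SE 0.14, edgeR adjusted p = 0.84). Glia exceeded otic cells by 2.10-fold (adjusted p = 0.0019), and otic cells exceeded neurons by 2.46-fold (adjusted p = 0.00047). In thinned cells 78.8% and 77.7% of otic cells and 43.1% and 51.9% of neurons had an ITGB1 UMI.

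ITGB8 was highest in otic cells, at 151 CPM in GelNB-CH and 110 in Matrigel. It stood at 94.3 and 82.8 in glia, 34.7 and 33.1 in mesenchyme, and 49.7 and 32.4 in neurons. Otic cells exceeded mesenchyme by 3.45-fold (log2 1.79, SE 0.15, edgeR adjusted p = 0.00034) and neurons by 3.20-fold (adjusted p = 0.00024). The smaller difference from glia, 1.41-fold (adjusted p = 0.045), did not hold: it turned to a log2 of -0.35 when the cells meeting both the CDH19 and the COL1A2 limit were counted as glia (adjusted p = 0.083), since those cells had ITGB8 at 227 and 139 CPM. ITGB8 made up 30.7% and 24.2% of the 2 beta subunits in otic cells and 10.1% and 8.97% in mesenchyme.

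Mesenchyme was not uniform in its integrins. From 3 to 4, through 5 to 29, to at least 30 UMIs of COL1A2, ITGA5 went from 11.9 through 16.3 to 29.4 CPM in GelNB-CH and from 12.1 through 14.0 to 25.4 in Matrigel. ITGA6 went the other way, from 48.0 through 22.4 to 5.71 CPM and from 74.1 through 64.1 to 7.68. Cells with at least 2 UMIs of OGN, a proteoglycan gene of fibrous connective tissue, had ITGA6 at 6.99 and 6.84 CPM, against 37.3 and 88.2 without OGN. Those with at least 2 UMIs of PAX3, a neural crest and muscle precursor gene, had ITGB8 at 76.2 and 68.5 CPM, against 27.7 and 26.8 without it. In the 226 and 106 cells with at least 2 UMIs of BARX1, a craniofacial mesenchyme gene, ITGAV stood at 246 and 157 CPM, against 130 and 104 without it. These splits were chosen after the values were seen, use cells of unequal depth and carry no test. In mesenchyme ITGA6 also differed by UMIs of the glial genes SOX10, FOXD3 and CDH19. It stood at 11.4 and 12.7 CPM in cells without them and 96.5 and 138 in cells with them. The part of such cells in these splits was not tested.

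The libraries were compared within each lineage by the ratio of CPM, with no test, since each hydrogel had 1 library. A gene was counted as apart where the larger value was at least 10 CPM and the ratio at least 2-fold. In otic cells none of the 7 subunits at 10 CPM was apart, against 1.97% of all genes. The widest otic ratios were ITGB8, 1.37-fold higher in GelNB-CH (1.32 to 1.41), and ITGA8, 1.31-fold higher in Matrigel (1.24 to 1.38). None of 8 was apart in glia (7.08% of genes), where ITGA1 was 1.48-fold higher in Matrigel (1.32 to 1.66). ITGA8 in glia fell under the level limit, with a ratio of 5.22 (1.49 to 28.0) from 3 and 16 counts. The cells meeting both the CDH19 and the COL1A2 limit had none of 8 apart (2.96% of genes), and there ITGB8 was 1.63-fold higher in GelNB-CH (1.52 to 1.75).

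**Figure D4:**
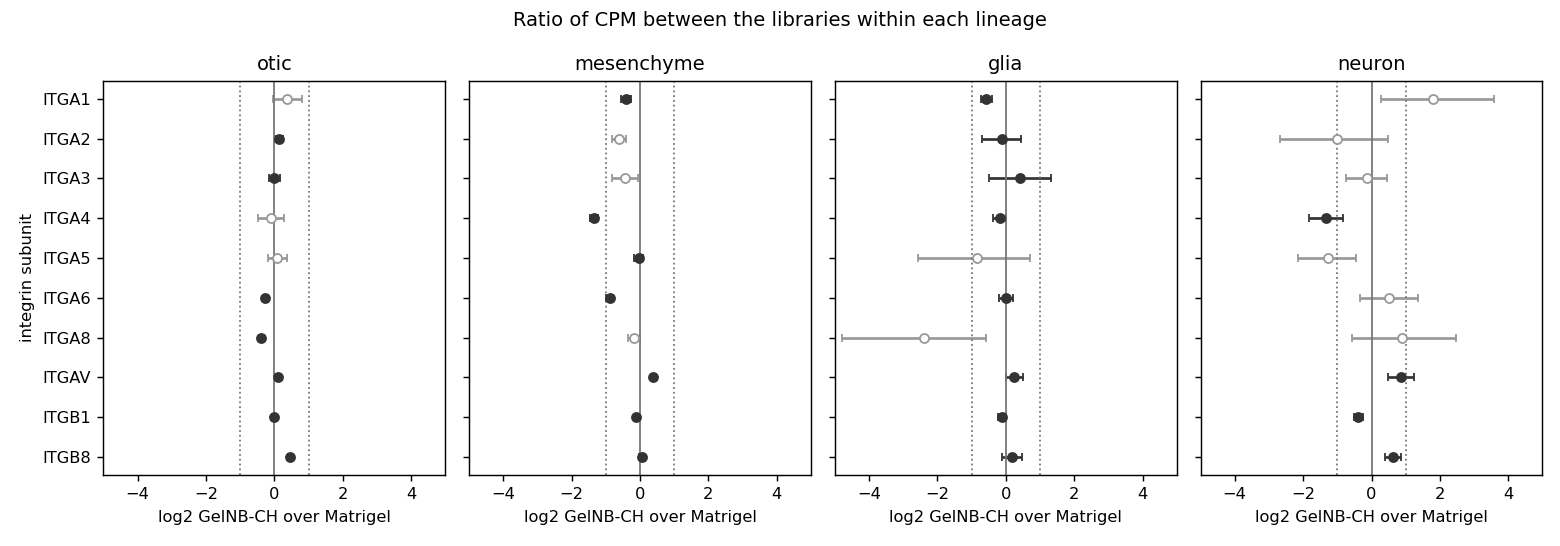
Log2 ratio of CPM, GelNB-CH over Matrigel, for each subunit in each lineage, with exact 95% intervals for counting error; filled points reached 10 CPM in at least 1 library and dotted lines mark a 2-fold ratio either way. ITGA4 is the filled point past the line toward Matrigel in mesenchyme and in neurons, and no filled point is past it in otic cells or glia.

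ITGA4 was apart in mesenchyme, where it was the only one of 7 subunits (1.01% of genes), and in neurons, the only one of 4 (7.91% of genes). Mesenchyme had 767 ITGA4 counts in GelNB-CH and 1831 in Matrigel, 2.53-fold higher in Matrigel (2.33 to 2.76). Counting cells of several lineage genes in each lineage raised the ratio to 4.16 (3.94 to 4.39), and with them ITGA1, ITGA2 and ITGA6 were apart too. Neurons had 48 and 131 counts, 2.52-fold higher in Matrigel (1.80 to 3.59), but the neuronal ratio was 1.69 (1.04 to 2.80) in cells of 8000 to 16000 UMIs and 4.38 (3.30 to 5.90) with cells of several lineage genes counted in each. Neurons with at least 2 UMIs of PPP1R17, a phosphatase regulator gene, were 227 of 934 in GelNB-CH and 382 of 506 in Matrigel, with ITGA4 at 13.2 and 17.9 CPM, against 2.80 and 3.23 CPM in neurons without it. In thinned cells, grouped again by their thinned PPP1R17 UMIs, the pair was 20.6 and 2.73 CPM in GelNB-CH (18 and 7 counts). In Matrigel it was 13.0 and 11.4 (21 and 7 counts). Thinning can move cells with PPP1R17 into the group without it, so the close Matrigel values do not separate depth from this regrouping.

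Glial marker RNA, like ITGA4, was higher in Matrigel than in GelNB-CH mesenchyme. The 10 glial markers summed to 772 CPM in mesenchyme of GelNB-CH and 1053 in that of Matrigel, with 6 and 10 of them at 10 CPM or more and none at 0. SOX10 stood at 22.0 and 38.2 CPM and FOXD3 at 3.43 and 12.4. Mesenchyme cells with no UMI of SOX10, FOXD3 and CDH19 numbered 5244 and 2652, and in them ITGA4 was at 7.96 and 9.59 CPM, a ratio of 1.20 (1.04 to 1.39). Those with at least 1 such UMI numbered 867 and 990, which is 14.2% and 27.2% of mesenchyme, and had ITGA4 at 41.7 and 100.3 CPM. The split was added after the data were seen and was not made at equal depth. Cells without glial UMIs had medians of 8107 (GelNB-CH) and 13269 (Matrigel) UMIs, and those with them 9041 and 13091. A limit of 1 UMI is met more easily in deeper cells, so the shares and levels are not strictly comparable between the libraries. The library ratio of ITGA4 was under 2-fold in the cells without glial UMIs and over 2-fold in the cells with them. The part of glial RNA in the library difference was not tested.

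ITGA6 followed the same split. In mesenchyme cells without glial UMIs it stood at 11.4 and 12.7 CPM, and with them at 96.5 and 138. ITGA1 did so too, at 7.42 and 8.40 CPM without and 43.6 and 42.4 with. ITGA5 was higher in the cells without glial UMIs, at 18.5 and 21.0 CPM against 10.0 and 8.30. ITGAV was little moved, at 140.0 and 108 CPM without and 129 and 102 with.

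**Figure D5:**
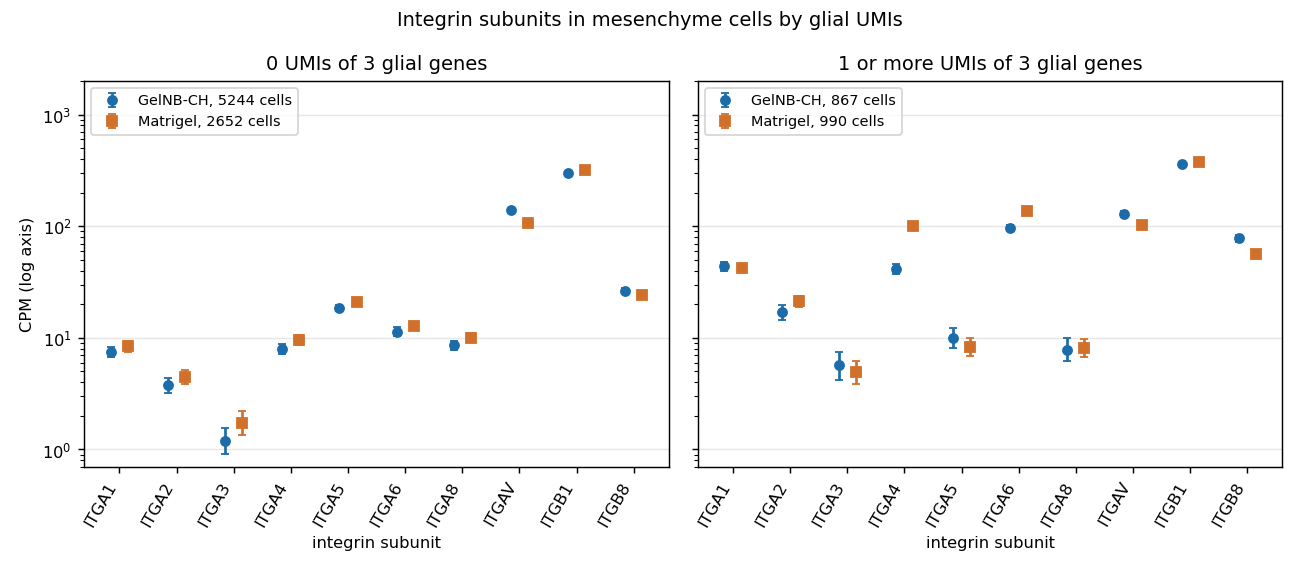
Level of each subunit (CPM, log axis) in mesenchyme cells with no UMI (left) or at least 1 UMI (right) of SOX10, FOXD3 and CDH19, with 1 point per library and exact Poisson 95% intervals. ITGA4 is at 7.96 and 9.59 CPM on the left and at 41.7 and 100.3 CPM on the right.

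Of the 16 other integrin subunits, 5 passed the filter for the lineage test. ITGB5, a beta subunit that joins ITGAV protein, stood at 98.3 and 123 CPM in glia and 2.13 and 1.72 in neurons, 59.5-fold apart (edgeR adjusted p = 2.6e-05). ITGA10, a collagen receptor gene of cartilage, stood at 35.3 and 33.9 CPM in mesenchyme and 1.20 and 0.736 in neurons. It entered the test through mesenchyme alone, so its differences are given as levels only. Of the 5 tested, 4 were higher in mesenchyme than in otic cells (18.8% of all genes were) and none was higher in otic cells (18.9%). Between mesenchyme and glia, 3 were higher in mesenchyme (14.3%) and 1 in glia (14.4%). ITGA10 and ITGA11, both among those higher in mesenchyme, had passed the filter only through it.

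Of 17 genes tested that link integrins to the cytoskeleton or sit beside them in the membrane, 8 were higher in glia than in otic cells (19.1% of all genes were) and none was higher in otic cells (19.8%), with a median log2 otic over glia of -0.44 (0.03 over all genes). PTK2, which encodes focal adhesion kinase, was the highest of them, at 488 and 691 CPM in glia, 208 and 198 in otic cells, 227 and 237 in mesenchyme, and 208 and 225 in neurons. Glia exceeded otic cells in PTK2 by 2.96-fold (edgeR adjusted p = 0.00069). LIMS2, at 18.7 and 12.2 CPM in otic cells and 0.399 (3 counts) and 0.491 (4 counts) in neurons, and the tetraspanin gene CD9, at 99.6 and 85.1 CPM and 2.79 and 3.56, differed most between lineages. Both were higher in otic cells than in neurons (edgeR adjusted p = 0.00050 and 7.6e-05), but they are named because they differed most. LIMS2 had passed the filter only through otic cells and glia, so the filter itself favoured its difference from neurons. Between the libraries, none of the adaptor genes at 10 CPM was apart in any lineage.

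Ligand genes of these receptors stood higher in mesenchyme and glia than in otic cells more often than the reverse. Of 18 ligand genes tested, 11 were higher in mesenchyme than in otic cells (18.8% of all genes were) and 4 were higher in otic cells (18.9%): LTBP1, SPP1, NPNT and LAMA5. Against glia, 10 were lower (19.1%) and 5 higher (19.8%) in otic cells. NPNT, counted in both, had passed the filter only through otic cells, and VCAM1, among the 11, only through mesenchyme (13.1 and 16.5 CPM). The filter itself favoured these differences. COL1A1, also among the 11, is set against a lineage defined by another collagen gene, COL1A2. COL1A1 was the highest ligand gene, in mesenchyme, and FN1, the fibronectin gene, stood at 276 and 256 CPM there and 11.7 and 11.5 in otic cells. LTBP1, which holds latent TGF-beta in the matrix, was the highest of the list in otic cells, at 715 and 547 CPM against 232 and 194 in mesenchyme (2.69-fold, edgeR adjusted p = 0.00073). FN1 and the next 2 genes are named after their values were seen. NPNT, the nephronectin gene, reached 10 CPM in otic cells alone, so beyond these counts no test of its lineage difference is given. In otic cells NPNT was 1 of 2 ligand genes apart between the libraries, at 38.2 CPM in GelNB-CH and 17.5 in Matrigel, 2.18-fold higher in GelNB-CH (2.01 to 2.36). TNC, the tenascin gene, was the other, at 13.8 and 5.70 CPM (2.43-fold, 2.11 to 2.80).

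Cells with none of the 4 lineage genes at its limit numbered 4125 in GelNB-CH and 1429 in Matrigel. ITGA8 alone of 9 subunits was apart between the libraries in them (3.66% of genes were). It stood at 7.43 CPM in GelNB-CH and 17.0 in Matrigel, 2.29-fold higher in Matrigel (1.92 to 2.72). Otic markers summed to 393 and 575 CPM in these cells, with 8 and 9 of 10 at 10 CPM or more and none at 0. Cartilage markers summed higher, to 6697 and 4679 CPM, as did mesenchyme markers (4375 and 4448) and glial markers (1104 and 773). The remaining lists summed lower than the otic one. In the 2958 and 1040 of these cells with 0 OC90 UMIs, ITGA8 stood at 4.64 and 12.5 CPM. The part of any of these cell types in the difference was not tested.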

How the data were processed

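UMI counts were deposited per gene and cell barcode for 2 libraries (10x 3' assay, version 3.1). Per the file headers they were made with Cell Ranger 7.1.0, whereas the labels' protocols give 4.0.0; the submitters' processing notes name STAR and GRCh38, and the annotation and the counting of introns are not given in the sources used here. Barcodes with at least 1000 genes and at most 15% mitochondrial UMIs were kept, and Scrublet (scanpy 1.11.5) removed 14.2% and 6.55% of barcodes as doublets, leaving 18253 and 9800 cells with 184627310 and 156943283 UMIs. Counts were summed per library and lineage and tested with edgeR 4.0.16 (Benjamini-Hochberg), which was tested on simulated data; a gene entered at 10 CPM in 2 of 8 sums. Library ratios have exact conditional binomial intervals, levels Poisson and shares Clopper-Pearson intervals (95%), all for counting error only. The 10 subunits are always named; likeness took the 2 nearest genes per subunit, and from each list the highest and most different genes. Members, lists and limits were chosen with earlier results of these data known. Alternatives changed doublets, filters, limits, depth, scaling, the test (DESeq2 1.42.0) and the block. Gene coordinates are GENCODE 29 on GRCh38. Genes on the opposite strand overlap ITGA1, ITGA2, ITGA5, ITGA6, ITGAV, ITGB1 and ITGB8, and no source used here says whether strand was used in counting, so their counts may include antisense reads.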

Additional observations from a re-analysis of the deposited data

How the results depend on the processing

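Counts of subunits apart between the libraries moved with the cells used. In mesenchyme the count of 1 became 4 with cells of several lineage genes counted in each, with the lineage limits raised and after thinning, 2 in cells of 8000 to 16000 UMIs and with each cell's own CPM averaged, and 0 without glial UMIs, an alternative chosen after seeing the data; the cause was not tested. In glia the count of 0 became 1 (ITGA8) in cells of 8000 to 16000 UMIs and at a level of 5 CPM. In neurons the count of 1 became 2 with doublets kept, with all barcodes and at 5 CPM, 3 with cells of several lineage genes counted in each, and 0 in cells of 8000 to 16000 UMIs and at 20 CPM.

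Log2 ratios between lineages turned sign in 31 of 780 refits. Otic over mesenchyme, ITGB1 came to 0.0056 without glial UMIs and 0.11 with library totals only. Otic over glia, ITGA2 came to 0.12 and ITGA5 to 0.17 without a count filter, and ITGA5 to 0.030 with library totals only. ITGA3 came to -0.46 with cells counted in each lineage, -0.22 at raised limits (10 UMIs of OC90 or STMN2, 6 of COL1A2 or CDH19), -0.36 in cells of 8000 to 16000 UMIs, -0.50 with CDH19 and COL1A2 cells as glia and -0.41 after thinning; ITGB8 came to -0.34, -0.35 and -0.029 with cells counted in each lineage, with CDH19 and COL1A2 cells as glia and after thinning. Otic over neuron, ITGA1 came to -1.48 with cells counted in each lineage and ITGA5 to 0.52 after thinning. Mesenchyme over glia, ITGAV came to -0.23, -0.19, -0.31, -0.26 and -0.074 with cells counted in each lineage, at raised limits, with CDH19 and COL1A2 cells as glia, after thinning and with library totals only. Mesenchyme over neuron, ITGA4 came to -0.18 without glial UMIs, and ITGB8 to 0.56, 0.038, 0.017 and 0.054 with cells counted in each lineage, at raised limits, after thinning and without a count filter. Glia over neuron, ITGA5 came to 0.53, 0.10, 0.42, 0.61 and 0.85 with cells counted in each lineage, at raised limits, in cells of 8000 to 16000 UMIs, with CDH19 and COL1A2 cells as glia and after thinning, and ITGA8 to -0.27 at raised limits. Of the calls these refits touch, those of ITGB8 (otic and glia) and ITGA4 (mesenchyme and neuron) had passed the test. Counts of subunits called between lineages stayed within 1.5 times. Leaving out the library block lost 2 calls. No paired analysis was possible between the hydrogels because each has 1 library; the lineages were compared within libraries. With 275 and 236 glial cells, glial levels of a few counts are the least precise.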

Other observations

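In cells with none of the 4 lineage genes at its limit, ITGB1 stood at 287 CPM (GelNB-CH) and 275 CPM (Matrigel) and ITGAV at 92.9 and 80.5. FN1 was 2.05-fold higher in GelNB-CH in these cells (1.93 to 2.19).

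Cells that met both the OC90 and the COL1A2 limit were 188 in GelNB-CH and 73 in Matrigel, with medians of 20369 and 28412 UMIs, deeper than either lineage. ITGA8 stood at 42.2 and 137 CPM in them and ITGAV at 90.0 and 69.5.

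Among all cells that met the CDH19 limit, the 36 and 196 cells with at least 2 UMIs of GPR17 had ITGB8 at 56.2 and 94.3 CPM, against 195 and 144 without it. This split was chosen after the values were seen.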
